A study of Mus musculus with 21 samples.

Results

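Regions of the mouse autosomes that were listed as bound to LaminB1 in fibro-adipogenic progenitors (FAPs) of both genotypes, and that carried no listed H3K9me2 in any library, are described here. Autosomes were divided into bins of 1 kb. Bins were kept when both LaminB1 domain lists and none of the 6 H3K9me2 domain lists covered them, and touching bins were merged. The rule gave 293 regions with a total length of 117.6 Mb. They made up 39.3% of the 299.1 Mb that both LaminB1 lists covered in 886 stretches, 8.49% of the 1385 Mb of autosome free of listed H3K9me2, and 4.78% of the autosomes. Of all autosomal length, 56.3% was free of listed H3K9me2 and 12.2% was covered by both LaminB1 lists. Shared LaminB1 was thus free of listed H3K9me2 by a lower share than the autosomes as a whole. The regions were chosen by the coverage of these 8 lists, so their number, length and place are a description with no test.

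FAPs are stromal cells of skeletal muscle, and after an injury they multiply and may give rise to fat or scar. The Prdm16 group carried Prdm16Flox/Flox::PdgfrαCre-ERT/+, in which a tamoxifen-inducible Cre is made by Pdgfra-expressing cells, and the WT group carried Prdm16Flox/Flox::Pdgfrα+/+, with the same floxed alleles and no Cre. Adult mice of both genotypes had 5 days of tamoxifen and 7 days of rest before cardiotoxin injury of muscle, and FAPs were sorted 5 days after it and expanded in culture for 4 to 5 days. H3K9me2 was profiled in 3 Prdm16 and 3 WT libraries, LaminB1 in 1 library of each genotype, and RNA in 2 Prdm16 and 3 WT libraries. Whether the libraries of a group stem from different animals is not said in the labels, so p-values below measure only the spread between these samples.

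LaminB1 is a filament protein that lines the inner face of the nuclear envelope. Stretches of chromosome that touch it, called lamina-associated domains, are known as long, gene-poor, mostly silent chromatin. Many of them carry H3K9me2, a histone mark written by the methyltransferases Ehmt1 and Ehmt2 and linked to tethering at the lamina, while others are held there with other marks or none that was assayed. Mouse lamina-associated domains are also known to hold large tandem arrays of genes that only specialised cells use, such as the odorant and pheromone receptors of sensory neurons.

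Promoters are shown first because base composition is a property that the rule did not use. Each stretch runs from 250 bases before to 50 bases after a gene start listed in RefSeq for GRCm38.p6 and is written 5′ to 3′ on the strand of the gene, with each CG dinucleotide in capitals. Leaving out predicted genes, the 4 coding genes with the highest mean RNA level whose start lay in a region were Zfp317 (chr9:19621841-19622140, + strand), Zfp951 (chr5:104860019-104860318, - strand), Klra4 (chr6:130067222-130067521, - strand) and Slc15a4 (chr5:127617343-127617642, - strand), and they show what a promoter with transcripts looked like inside these regions. The start listed for Slc15a4 lies inside the outer limits of its annotated gene body.
Zfp317: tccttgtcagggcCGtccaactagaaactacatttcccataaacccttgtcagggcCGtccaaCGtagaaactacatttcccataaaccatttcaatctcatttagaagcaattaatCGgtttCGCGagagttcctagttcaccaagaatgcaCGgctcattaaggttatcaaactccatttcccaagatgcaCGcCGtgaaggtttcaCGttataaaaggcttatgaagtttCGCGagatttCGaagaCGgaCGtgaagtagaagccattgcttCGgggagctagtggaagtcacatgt
Zfp951: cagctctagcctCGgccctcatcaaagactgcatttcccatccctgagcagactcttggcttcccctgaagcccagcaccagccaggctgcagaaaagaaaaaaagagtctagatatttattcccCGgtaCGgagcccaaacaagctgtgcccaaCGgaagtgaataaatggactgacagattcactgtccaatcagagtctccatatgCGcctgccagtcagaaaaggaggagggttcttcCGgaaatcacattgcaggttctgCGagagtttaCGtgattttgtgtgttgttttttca
Klra4: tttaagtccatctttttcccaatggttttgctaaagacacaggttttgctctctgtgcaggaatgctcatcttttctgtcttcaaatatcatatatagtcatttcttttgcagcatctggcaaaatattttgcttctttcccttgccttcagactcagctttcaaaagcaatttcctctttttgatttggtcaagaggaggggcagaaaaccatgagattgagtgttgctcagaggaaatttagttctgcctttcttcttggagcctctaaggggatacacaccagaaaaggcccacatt
Slc15a4: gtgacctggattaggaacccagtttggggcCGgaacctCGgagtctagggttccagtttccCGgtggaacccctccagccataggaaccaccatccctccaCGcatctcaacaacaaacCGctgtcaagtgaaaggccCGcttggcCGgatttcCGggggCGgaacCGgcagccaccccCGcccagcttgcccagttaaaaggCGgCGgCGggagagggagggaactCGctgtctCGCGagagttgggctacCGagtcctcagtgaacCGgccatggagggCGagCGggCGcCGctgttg
The 2 longest coding genes without a count in any RNA library were Sirpb1b (chr3:15575016-15575315, - strand) and A26c2 (chr7:62823694-62823993, - strand), shown as their silent counterparts.
Sirpb1b: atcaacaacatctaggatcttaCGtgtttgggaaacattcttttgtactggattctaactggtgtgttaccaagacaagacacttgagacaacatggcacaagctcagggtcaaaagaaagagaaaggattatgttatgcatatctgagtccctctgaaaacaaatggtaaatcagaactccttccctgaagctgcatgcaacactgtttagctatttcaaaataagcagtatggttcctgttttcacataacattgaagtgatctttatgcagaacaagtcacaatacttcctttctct
A26c2: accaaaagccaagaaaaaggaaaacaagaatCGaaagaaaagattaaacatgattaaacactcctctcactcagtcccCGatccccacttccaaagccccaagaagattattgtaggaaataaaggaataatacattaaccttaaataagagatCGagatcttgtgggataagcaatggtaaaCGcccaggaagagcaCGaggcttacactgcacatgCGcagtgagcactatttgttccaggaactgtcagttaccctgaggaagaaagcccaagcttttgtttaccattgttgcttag
Olfr114, an odorant receptor gene of the longest region (chr17:37590302-37590601, - strand), and Vmn1r224, a vomeronasal receptor gene of the next longest (chr17:20418913-20419212, + strand), stand for the 2 commonest families and were chosen after their positions were seen.
Olfr114: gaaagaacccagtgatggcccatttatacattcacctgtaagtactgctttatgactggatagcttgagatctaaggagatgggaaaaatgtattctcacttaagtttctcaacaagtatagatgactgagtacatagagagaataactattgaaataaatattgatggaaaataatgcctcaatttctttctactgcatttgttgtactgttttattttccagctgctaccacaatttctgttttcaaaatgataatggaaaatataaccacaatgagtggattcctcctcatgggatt
Vmn1r224: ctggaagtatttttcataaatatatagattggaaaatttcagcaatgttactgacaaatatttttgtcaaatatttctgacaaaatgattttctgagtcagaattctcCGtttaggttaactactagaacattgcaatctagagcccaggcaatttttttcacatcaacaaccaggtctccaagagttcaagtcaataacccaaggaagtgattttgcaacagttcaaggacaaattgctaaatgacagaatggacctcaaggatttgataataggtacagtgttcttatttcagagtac
These 8 promoters held 16 CG dinucleotides for Zfp317, 8 for Zfp951, 0 for Klra4, 23 for Slc15a4, 1 for Sirpb1b, 6 for A26c2, 0 for Olfr114 and 1 for Vmn1r224. Promoters of the 4 genes with transcripts thus held from 0 CG dinucleotides in Klra4 to 23 in Slc15a4. The median over all autosomal coding promoters was 14, and Zfp951 and Klra4 lay below it.

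Across all 968 coding promoters whose start lay in a region, the median GC content was 38.3%, against 56.7% over all 16457 autosomal coding promoters in the table. The median number of CG dinucleotides in 300 bases was 1, against 14 over all autosomal promoters. The other bins with shared LaminB1 had higher GC content. Their medians were 45.7% where 1 to 5 H3K9me2 libraries covered the start (508 promoters) and 49.3% where all 6 did (113 promoters). Bins with WT-only LaminB1 and no H3K9me2 had a median of 35.7% (409 promoters). Odorant and vomeronasal receptor genes weigh on these medians, since their own promoters had medians of 34.3% (Olfr, 286 promoters), 36.0% (Vmn1r, 127) and 37.0% (Vmn2r, 78). Without the 3 receptor families, the median was 44.0% in the regions (477 promoters), 48.0% with H3K9me2 in 1 to 5 libraries, 50% with H3K9me2 in all 6 and 44.7% with WT-only LaminB1.

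Short motifs were counted at any place on both strands of the same 300 bases, so a match need not be a working site. The part of GC content in these shares was not tested. TATAAA, the core of the TATA box, was found in 41.1% of the promoters in the regions and in 13.5% of all autosomal coding promoters. GGGCGG, the core of the GC box, was found in 5.58% and 47.3%. TAATTA, a core bound by many homeodomain factors, was found in 13.0% and 4.62%. With receptor genes included, promoters in WT-only LaminB1 without H3K9me2 had like shares, with TATAAA in 41.8%, GGGCGG in 4.16% and TAATTA in 16.6%. In shared LaminB1 with H3K9me2 in 1 to 5 libraries the shares were 25%, 9.65% and 7.87%, and with H3K9me2 in all 6 they were 5.31%, 16.8% and 4.42%. Without the 3 receptor families, TATAAA was found in 40.7% in the regions, but in 22.0% in WT-only LaminB1. It was found in 18.6% with H3K9me2 in 1 to 5 libraries and 5.88% with all 6. GGGCGG was then found in 10.9% in the regions and 12.1% in WT-only LaminB1, and TAATTA in 9.22% and 7.09%. Other gene families stayed among these promoters of the regions. TATAAA was in 15 of 16 alpha-defensin (Defa) and 17 of 24 secretoglobin (Scgb) promoters. It was in 0 of 10 major urinary protein (Mup) and 5 of 23 zinc finger (Zfp and Zscan) promoters. The part of such families in these shares was not tested. The motifs were counted apart, and TATAAA and TAATTA can overlap by their end bases. Of the printed promoters, Zfp317 and Olfr114 held TATAAA and Slc15a4 held GGGCGG. The 19 promoters of coding genes with a mean RNA level of 1 CPM (count per 1000000 counts) or more had a median GC content of 51.0% and a median of 9 CG dinucleotides, beside 38% and 1 for the 574 whose genes had no count in any library. TATAAA was found in 10.5% of these 19 and in 46.9% of these 574, and GGGCGG in 52.6% and 2.79%.

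Region length ranged from 1 kb to 3262 kb with a median of 197 kb. The 29 regions of at least 1 Mb held 50.9 Mb, or 43.3% of the total, and the 8 longest held 18.4%. At the other end, 20 regions were shorter than 20 kb. Of the 886 stretches covered by both LaminB1 lists, 158 were wholly free of listed H3K9me2 and held 67.5 Mb, or 57.4% of the length described here. A further 124 stretches were free in part, and 604 held no free bin.

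Shared LaminB1 length was 117.6 Mb where no H3K9me2 library covered the bin and 59.0 Mb where all 6 did. It was 30.1, 24.3, 22.7, 19.3 and 26.1 Mb where 1, 2, 3, 4 and 5 libraries did. The highest values were therefore at both ends, but this was not particular to shared LaminB1. Bins without LaminB1 had 1212 Mb with no library, 132.1 Mb with all 6 and 73.9 to 113.5 Mb between. WT-only LaminB1 had 53.5 Mb with no library, 98.6 Mb with all 6 and 26.7 to 54.4 Mb between. Bins with no library made up 39.3% of shared LaminB1 length and 56.3% of all autosomal length. Of the WT LaminB1 length without H3K9me2, 68.7% was also in the Prdm16 LaminB1 list. The same share was 53.0% with 1 H3K9me2 library and between 29.4% and 40.9% with 2 to 6, and 46.3% over all WT LaminB1. The Prdm16 list covered 305.2 Mb of autosome and the WT list 646.5 Mb. With 1 LaminB1 library per genotype and no depth given, these shares have no replicate check.

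**Figure D1:**
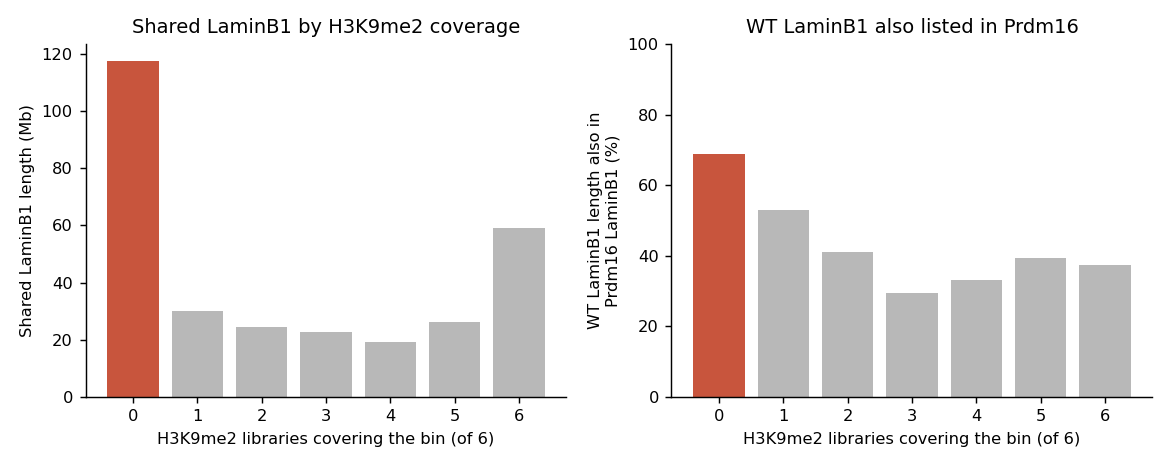
Left, autosomal length (Mb) covered by both LaminB1 lists, by the number of H3K9me2 libraries (of 6) that cover the same bin; right, percent of WT LaminB1 length in each such group that the Prdm16 LaminB1 list also covers. The red bars mark bins free of H3K9me2, with 117.6 Mb on the left and 68.7% on the right, both the highest of the 7 bars.

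The shared LaminB1 bins that came closest to the rule were covered by 1 H3K9me2 library alone. Of their 30.1 Mb, 1.93 Mb was covered in Prdm16 replicate 1 alone, and 0.071 and 0.041 Mb in Prdm16 replicates 2 and 3 alone. In WT replicate 1 alone it was 19.6 Mb, in WT replicate 2 alone 0.135 Mb and in WT replicate 3 alone 8.29 Mb. WT replicate 1 thus set the edge of the regions more than any other library. It also had the widest H3K9me2 coverage of shared LaminB1. That coverage was 37.0, 32.6 and 27.9% in Prdm16 replicates 1, 2 and 3, against 56.8, 34.9 and 47.7% in WT replicates 1, 2 and 3, so the genotypes overlapped. Without WT replicate 1, the free share of shared LaminB1 was 45.9% in place of 39.3%.

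Most regions ended where LaminB1 ended in Prdm16 and went on in WT. Of the 586 ends, 344 (58.7%) were of that kind, 148 (25.3%) lay at the start of listed H3K9me2, 56 lay where both LaminB1 lists ended and 38 where WT LaminB1 ended. At 137 of the 148 ends at H3K9me2, 1 library carried the mark in the next bin, at 8 ends 2 libraries did and at 3 ends 3 did. H3K9me2 bounded 13 regions on both sides and 158 on neither. The nearest listed H3K9me2 of any library lay at a median of 53 kb and at most 3777 kb away, and for 43 regions it lay more than 1 Mb away. By library, the median distance was 762, 772 and 1027 kb in Prdm16 replicates 1, 2 and 3, against 139, 898 and 465 kb in WT replicates 1, 2 and 3.

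Domains that held the regions had a longer median length and a higher median score than other domains in both lists of the authors. This comparison is not independent of the rule, which needs cover in both lists, and score was not separated from length. In the Prdm16 LaminB1 list, the 226 domains with a share of at least 0.5 in the regions had a median authors' score of 17.8 and a median length of 310 kb, and the other 677 had 11.5 and 180 kb. In the WT list, 95 such domains had a median score of 108.6 and a median length of 800 kb, and the other 890 had 26.8 and 332 kb. Score ranges overlapped, and the highest scores were in the other domains. In the Prdm16 list they ran from 7.23 to 269, against 7.21 to 391 in the others. In the WT list they ran from 9.68 to 533, against 9.39 to 829. The sources used here do not give how the score was made, so it was compared only within a list.

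The regions were spread unevenly over chromosomes. Chromosome 7 held 38 regions of 23.4 Mb, which was 19.9% of the total and 68.5% of its own shared LaminB1. Chromosome 17 followed with 65.9% of its shared LaminB1, chromosome 12 with 57.6% and chromosome 6 with 52.5%. Chromosomes 11 and 14 had 7.21% and 10.7%, and chromosome 19 had no region in 7.09 Mb of shared LaminB1. The share of a whole chromosome free of H3K9me2 was 67.2% on chromosome 7, 68.0% on chromosome 17, 52.0% on chromosome 12 and 60.8% on chromosome 19, so the order of chromosomes by free LaminB1 was not their order by free length.

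**Figure D2:**
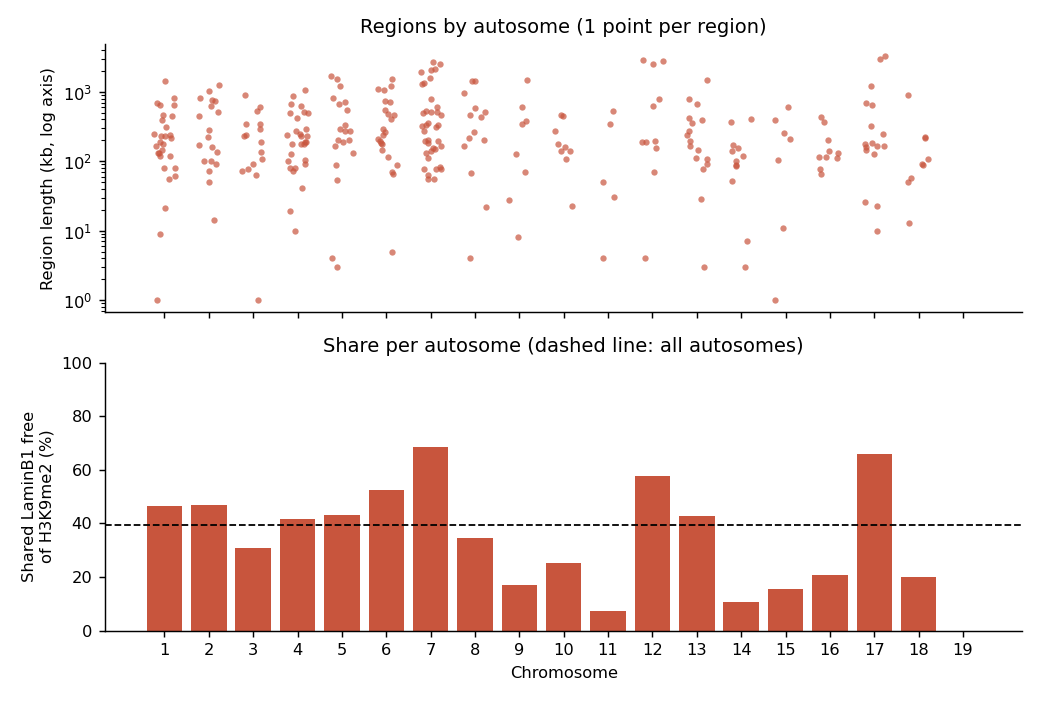
Top, length of each of the 293 regions (kb, log axis) by autosome; bottom, percent of the shared LaminB1 length of each autosome that was free of listed H3K9me2, with the value over all autosomes (39.3%) as a dashed line. Chromosome 7 (68.5%) and chromosome 17 (65.9%) have the highest bars and chromosome 19 has none.

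The 8 longest regions were gene arrays for the most part. The longest, 3262 kb on chromosome 17 (chr17:37530001-40792000), held 49 coding genes, of which 29 were odorant receptors (among them Olfr111 and Olfr138) and 15 were exocrine gland-secreted peptides (Esp), pheromones shed in tears and saliva. The rest included the testis genes Pgk2, a germ cell glycolytic enzyme, and Crisp1, Crisp2 and Crisp3, secreted proteins of the male tract and glands. A region of 2956 kb on the same chromosome (chr17:17960001-20916000) held 21 Vmn2r and 9 Vmn1r pheromone receptors and 5 formyl peptide receptors (Fpr), which sense bacterial peptides. Regions of 2828 kb (chr12:21620001-24448000) and 2812 kb (chr12:17944001-20756000) on chromosome 12 held 14 and 20 coding genes, none of them in a family searched for apart from Zfp996.

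Of the other 4, a region of 2645 kb (chr7:31252001-33897000) held 30 coding genes, and all 30 were secretoglobins (Scgb1b and Scgb2b), subunits of the androgen-binding proteins of mouse saliva and tears. Another of 2504 kb (chr7:9904001-12408000) held 19 Vmn1r and 5 Vmn2r receptors, 81 pseudogenes and the Zscan4b, Zscan4c, Zscan4d and Zscan4f genes, zinc finger genes switched on in the early embryo. A region of 2480 kb (chr12:113532001-116012000) covered the immunoglobulin heavy chain variable locus with 184 V segments or V segment pseudogenes and 1 coding gene, the sperm gene Adam6a. A region of 2142 kb (chr7:13560001-15702000) held 8 Sult2a genes, which encode hydroxysteroid sulfotransferases, and 4 Obox homeobox genes of the oocyte. Among these 8 regions, LaminB1 stretches of the 2956 kb region ended in Prdm16 at both sides and its nearest H3K9me2 lay 117 kb away, while 4 of the others touched H3K9me2.

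The regions held 3070 RefSeq genes whose body lay inside by a share of 0.5 or more, and 2670 of these were matched to the count table. They comprised 1132 coding genes, 1087 pseudogenes and 46 transcribed pseudogenes, 214 lncRNA genes, 241 snoRNA genes, 290 V segments or V segment pseudogenes and 7 miRNA genes. Of the 241 snoRNA genes, 17 were Snord116-like copies on chromosome 7. V segments and V segment pseudogenes comprised 183 of the heavy chain (Ighv), 100 of the kappa light chain (Igkv) and 6 of the T cell receptor alpha locus (Trav). Of all autosomal V segments, 45.9% lay in the regions, as did 71.2% of V segment pseudogenes, beside 5.48% of coding genes and 1.72% of lncRNA genes.

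Coding genes numbered 9.62 per Mb in the regions, against 8.40 per Mb over all autosomes. Odorant and vomeronasal receptors are included, with 558 of the 1132 coding genes in the regions and 1458 of 20665 over all autosomes. Receptors were thus 49.3% of the coding genes in the regions and 7.06% over all autosomes. The higher density is given only with these receptors counted, and density without them was not computed. Density was 4.85 per Mb in shared LaminB1 with H3K9me2 in 1 to 5 libraries and 2.53 per Mb with H3K9me2 in all 6. It was 9.49 per Mb in WT-only LaminB1 without H3K9me2 and 13.1 per Mb without LaminB1 or H3K9me2. Pseudogenes numbered 9.63 per Mb in the regions, 5.01 and 3.36 per Mb with H3K9me2 in 1 to 5 and in all 6, 7.15 per Mb in WT-only LaminB1 and 3.52 per Mb without either. With receptors included, the regions therefore held more coding genes per Mb than either class of shared LaminB1 with H3K9me2. They also had the highest pseudogene density of these 5 classes. Genes were not evenly spread: 145 regions held a coding gene and 148 regions, with 32.5 Mb, held none, and the richest held 51.

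Odorant and vomeronasal receptors (Olfr, Vmn1r and Vmn2r) made up 558 of the 1132 coding genes (49.3%), against 7.06% of all autosomal coding genes. Their share was 27.3% with H3K9me2 in 1 to 5 libraries, 6.71% with H3K9me2 in all 6, 62.4% in WT-only LaminB1 free of H3K9me2 and 0.554% without either. They lay in 52 regions of 32.5 Mb, or 27.6% of the length. Odorant receptors (Olfr) gave 341 of 1104 autosomal genes (30.9%) in 27 regions on 9 chromosomes, and a further 295 lay in WT-only LaminB1 free of H3K9me2. Shared LaminB1 with H3K9me2 held 126 Olfr genes where 1 to 5 libraries carried the mark and 9 where all 6 did. Vomeronasal type 1 receptors (Vmn1r), which detect small pheromones, gave 138 of 231 (59.7%) in 12 regions, with 30 in shared LaminB1 with H3K9me2 in 1 to 5 libraries and 0 with the mark in all 6. Vomeronasal type 2 receptors (Vmn2r), which detect peptide pheromones, gave 79 of 123 (64.2%), with 6 and 1. No p is given, since genes of an array share a region and are no replicates.

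Other families were in the regions by large shares as well. Of the secreted families, 30 of 40 secretoglobins (75%) and 17 of 24 major urinary protein genes (Mup, 70.8%), whose products carry pheromones in urine, lay in them. Of the immune families, 14 of 29 Klr genes (48.3%), receptors of natural killer cells, did so in 1 region. The cytochrome P450 genes (Cyp) had 14 of 99 and the zinc finger genes (Zfp and Zscan) 26 of 404 (6.44%), while 347 of the 404 lay without LaminB1 or H3K9me2. None of 39 Hox genes, 75 histone genes, 42 collagen genes or 25 prolactin family genes (Prl) lay in a region. Among families looked at after their positions were seen, all 29 alpha-defensin genes (Defa), antimicrobial peptides of the gut, all 15 Esp genes and all 8 Sult2a genes lay in the regions, each family in 1 region. Also so chosen, 29 of 45 Pramel genes, which are active in germ cells, 17 of 35 bitter taste receptors (Tas2r) and 13 of 20 Mrgpr receptors of sensory neurons did. In all, 832 of 1132 coding genes (73.5%) belonged to a family searched for, against 3332 of all 20665 autosomal coding genes. Of the 832, 691 were in families set before the positions were seen. The others were in families added afterwards, so the share of 73.5% is in part drawn from the regions themselves.

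**Figure D3:**
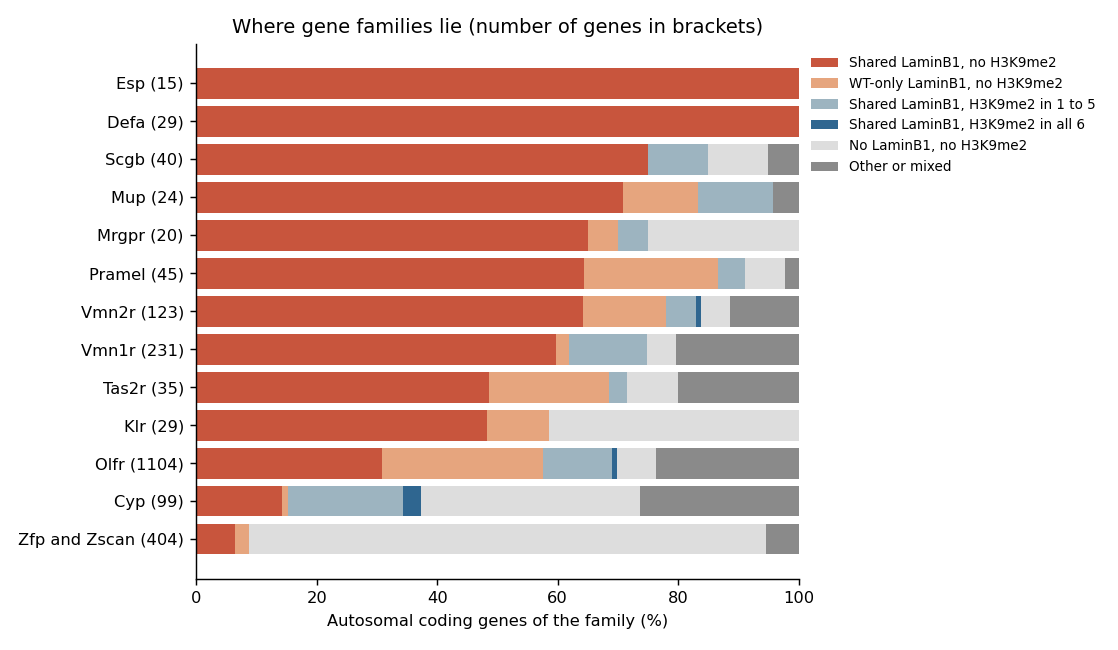
Percent of each gene family (number of autosomal coding genes in brackets) by the class of bins that holds at least 0.5 of the gene body, for families with at least 10 genes in the regions. Red marks shared LaminB1 without H3K9me2, which holds all Esp and Defa genes, 64.2% of Vmn2r, 30.9% of Olfr and 6.44% of Zfp and Zscan genes; dark blue, shared LaminB1 with H3K9me2 in all 6 libraries, is at most 3.03% of any family drawn.

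Near-identical tandem copies fill many of these arrays. The sources used here do not give how reads that map to several places were treated, so counts of single receptor, defensin, secretoglobin or zinc finger genes are uncertain, and so is domain coverage over such arrays.

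RNA library totals were 8448654 and 5839587 counts in Prdm16 replicates 1 and 2, against 10657791, 7053114 and 10284864 in WT replicates 1, 2 and 3. Levels are CPM of the scaled library size, and 3 counts, the limit that a count of 0 allows, correspond to 0.28 to 0.533 CPM by library. Prdm16 itself had 10.6 and 15.3 CPM in Prdm16 libraries, against 16.5, 13.5 and 5.51 CPM in WT libraries, so the groups overlapped; the sources used here do not give whether the deleted part is counted. Per-gene p-values of the authors' deposited table were matched within 1% by DESeq2 for 167 of 14523 genes with the libraries as labelled, and for all 14523 with an exchange of the library labelled WT replicate 3 and that labelled Prdm16 replicate 1. Both libraries thus go against their labels in that table, and results that rest on them are also given without them. The 8 FAP markers summed to 6549 and 6359 CPM in Prdm16 libraries, against 6492, 6923 and 3428 in WT libraries, and the 6 myoblast markers to 137 and 144 CPM, against 53.6, 61.9 and 189, with Pax7 at 0 in WT replicates 1 and 2. The macrophage markers summed to at most 5.51 CPM in any library. Of these, Adgre1, an adhesion receptor, lies in one of the regions and had no count in any library. The part of cell makeup in any result below was not tested, and in bulk samples fewer cells of a type and less RNA per cell cannot be told apart.

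Few genes of the regions had transcripts in FAPs. Of the 1042 coding genes matched to the count table, 23 (2.21%) reached a mean of 1 CPM over the 5 libraries, against 59.3% of all 20160 autosomal coding genes matched. No count in any library was found for 681 (65.4%), against 17.4% of all autosomal coding genes. The number at 1 CPM or more was 20 and 19 in Prdm16 libraries, against 21, 27 and 16 in WT libraries, so the genotypes overlapped. The summed level of all coding genes of the regions was 185 and 185 CPM in Prdm16 libraries, against 199, 228 and 192 CPM in WT libraries. Both Prdm16 sums lay below all 3 WT sums, by less than the spread among the WT libraries. The share that reached 1 CPM was 2.21% also without the 2 libraries that go against their labels.

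The other classes of shared LaminB1 had few such genes as well. A mean of 1 CPM was reached by 9 of 578 coding genes (1.56%) with H3K9me2 in 1 to 5 libraries and by 1 of 141 (0.709%) with H3K9me2 in all 6. In WT-only LaminB1 free of H3K9me2 it was reached by 39 of 499 genes (7.82%), and without LaminB1 or H3K9me2 by 72.9%. These shares are given with no test, since genes of an array are not independent. Without the receptor families the shares were 4.75% in the regions, 2.16% with H3K9me2 in 1 to 5 libraries, 0.763% with all 6 and 19.7% in WT-only LaminB1. None of the 558 receptor genes in the regions had a mean of 1 CPM, and 190 of 341 Olfr, 104 of 138 Vmn1r and 34 of 79 Vmn2r genes had no count in any library.

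**Figure D4:**
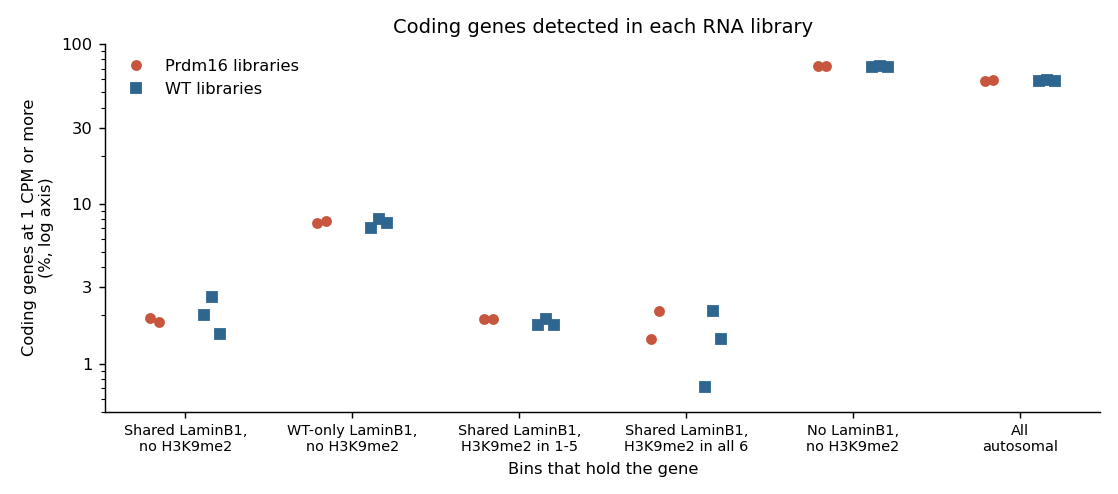
Percent of coding genes at 1 CPM or more (log axis) in each RNA library, by the class of bins that holds the gene; circles are the 2 Prdm16 libraries and squares the 3 WT libraries. In shared LaminB1 without H3K9me2 every library lies between 1.54 and 2.59%, far below the values without LaminB1 or H3K9me2, which lie between 71.9 and 73.1%.

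The 23 genes lay in 17 regions. The middle of their gene bodies was at a median of 69.1 kb from the nearest end of the region, with 14 of 23 (60.9%) within 100 kb, against a median of 149 kb and 38.2% within 100 kb for the 1019 other matched coding genes. Their range was 2.69 to 1345 kb, beside 0 to 1545 kb for the others. The 23 genes also lay in shorter regions, with a median length of 500 kb over these genes, against 772 kb over the others, and the part of region length in the distances was not tested. Genes with a Zfp symbol made up 6 of the 23, and the protocadherin beta cluster on chromosome 18, cell adhesion genes of neurons, gave 4 from 1 region.

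Zfp317, a KRAB zinc finger gene on chromosome 9, had the highest CPM of the coding genes in the regions, a value that also depends on transcript length. Its level was 57.3 and 52.8 CPM in Prdm16 libraries, against 52.4, 60.3 and 63.6 CPM in WT libraries. The groups overlapped, and the log2 fold change (Prdm16 over WT) was -0.10 with a standard error of 0.20. Zfp951, another zinc finger gene, had 12.1 and 12.8 CPM in Prdm16 libraries, against 10.0, 17.5 and 11.3 CPM in WT libraries. Klra4, which encodes the activating natural killer cell receptor Ly49D, had 11.6 and 17.1 CPM in Prdm16 libraries, against 10.0, 8.31 and 13.3 CPM in WT libraries. These 2 genes also overlapped between the groups, and Klra4 was the 1 Klr gene of the 14 that reached a mean of 1 CPM.

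Slc15a4, a transporter of peptides and histidine in lysosomes, had 7.70 and 10.8 CPM in Prdm16 libraries, against 22.1, 8.46 and 10.2 CPM in WT libraries, where replicate 1 stood above the rest. Zik1, a zinc finger gene among the Vmn1r genes of chromosome 7, had 6.07 and 5.51 CPM in Prdm16 libraries, against 6.16, 5.16 and 7.28 CPM in WT libraries. Pcdhb5, of the protocadherin beta cluster, had 6.77 and 5.15 CPM in Prdm16 libraries, against 4.14, 6.31 and 4.76 CPM in WT libraries. No gene of these 3 separated the genotypes. Zfp992, a zinc finger gene on chromosome 4, had 7.70 and 2.84 CPM in Prdm16 libraries, against 3.66, 3.30 and 8.21 CPM in WT libraries, a wide and overlapping spread.

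A few genes had both high and low libraries within a genotype. Sp110, a nuclear body protein of immune cells, had 14.9 and 1.07 CPM in Prdm16 libraries, against 14.04, 19.6 and 0.373 CPM in WT libraries. Sp140, its relative in the same region of chromosome 1, had 4.90 and 1.95 CPM in Prdm16 libraries, against 4.52, 8.89 and 0.84 CPM in WT libraries. In both genes, the low libraries were Prdm16 replicate 2 and the library labelled WT replicate 3. Lrrn1, a leucine-rich repeat membrane protein of neurons, had 3.27 and 5.33 CPM in Prdm16 libraries, against 1.06, 1.00 and 9.98 CPM in WT libraries, with the library labelled WT replicate 3 the highest. The gene bodies of Sp110 and Sp140 overlap, and whether they share counted reads was not tested. Zfp984, one of several zinc finger genes in a region of chromosome 4, had 0.467 and 0.178 CPM in Prdm16 libraries, against 14.9, 13.2 and 0.28 CPM in WT libraries, of which the library labelled WT replicate 3 lay between the Prdm16 values. Its neighbour Zfp991 had 1.40 and 1.24 CPM, against 3.17, 4.87 and 1.21 CPM, with the same WT library lowest.

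**Figure D5:**
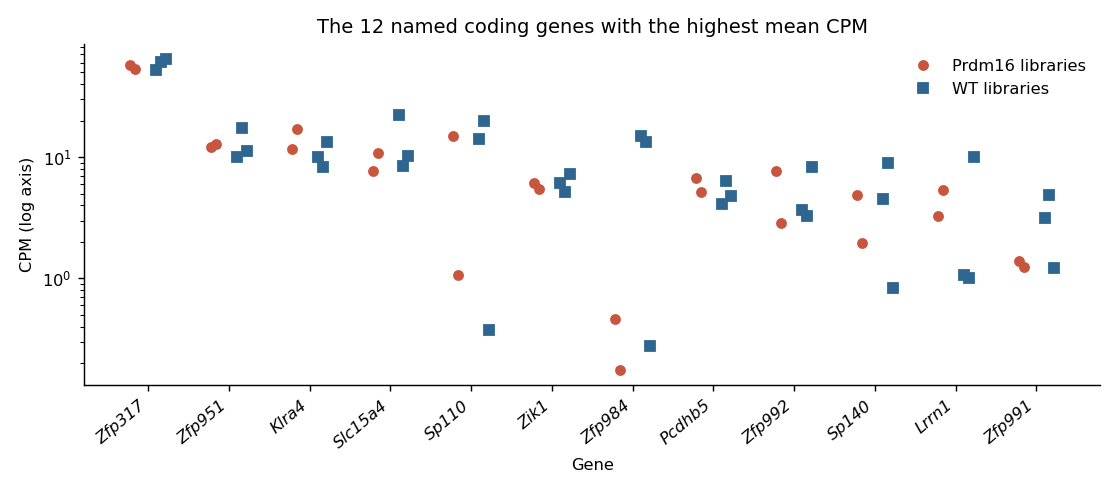
CPM (log axis) of the 12 named coding genes of the regions with the highest mean level; circles are Prdm16 libraries 1 and 2 and squares WT libraries 1, 2 and 3, in order from left to right. Zfp317 sits between 52.4 and 63.6 CPM in all 5 libraries, while Sp110 and Zfp984 each have libraries below 1.1 and above 13 CPM.

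The remaining named genes that reached 1 CPM were low. Fgf14, which encodes a partner of neuronal sodium channels, had 1.87 and 2.13 CPM in Prdm16 libraries, against 1.73, 1.29 and 1.96 CPM in WT libraries. Zfp990 had 1.87 and 2.31 CPM in Prdm16 libraries, against 1.06, 1.58 and 1.87 CPM in WT libraries. Srrm4, a splicing regulator of neurons, had 2.10 and 1.07 CPM in Prdm16 libraries, against 0.77, 0.86 and 0.653 CPM in WT libraries. Both Srrm4 values in Prdm16 lay above all 3 in WT, but the gene did not pass the expression filter and was not tested. Zfp990 also had every Prdm16 library above every WT library, though its nearest pair is equal as rounded here, with a log2 fold change of 0.47 (standard error 0.55, adjusted p = 0.9996 by edgeR).

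The RNA of these genes was then compared between Prdm16 and WT libraries. Only 36 of the 2670 matched genes of all types passed edgeR's expression filter, of which 20 were coding. None was called at an adjusted p under 0.05 by edgeR's quasi-likelihood test, where 0% of all 15240 genes tested were called. At an unadjusted p under 0.05, 1 gene of the 36 (2.78%) passed, against 2.48% of all genes tested, a share near the background. It was lower in Prdm16, as were 1.37% of all genes tested at that p. Without WT replicate 1 or WT replicate 2 no gene of the regions passed at that p (of 32 and 33 tested), against 2.29% and 4.71% of all genes tested. The gene that passed with all 5 libraries, Zfp984, did not pass the expression filter in either fit, so it was not tested there. Without WT replicate 3, 3 of 33 genes (9.09%) passed, against 5.9% of all genes tested. DESeq2, run with no expression filter, called 0 of the regions' genes and gave 3 of 638 (0.47%) an unadjusted p under 0.05, against 1.34% of all 32193 genes with a p. The log2 fold change was above 0 in 13 of 36 (36.1%), against 50.1% of all genes tested, and the median was -0.13, against 0.0005. Every Prdm16 library lay above every WT library in 3 of 36 genes (8.33%, against 8.83% of all genes tested) and below in 4 of 36 (11.1%, against 8.96%). The 36 genes are those with transcripts and do not stand for the regions' genes as a whole. Besides Zfp984, the named genes with the smallest p were Zfp991, Klra4, Slc15a4, Zfp990, Pcdhb7, Pcdhb5 and Fgf14. Their log2 fold changes lay between -1.19 for Zfp991 and 0.47 for Zfp990, each with an adjusted p of 0.9996 by edgeR. Pcdhb7, a neighbour of Pcdhb5, had 0.934 and 0.71 CPM in Prdm16 libraries, against 1.92, 1.43 and 0.467 CPM in WT libraries, with the groups overlapping.

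The gene with an unadjusted p under 0.05 was Zfp984, with a log2 fold change of -4.72 (standard error 1.79, adjusted p = 0.9996 by edgeR). Without the 2 libraries that go against their labels, 1 Prdm16 and 2 WT libraries were left, and the lone Prdm16 library is assumed to vary as the WT ones do. In that fit, 0.614% of all 15151 genes tested were called, 0.0924% higher and 0.521% lower in Prdm16. Of the 40 genes of the regions tested, 2 fell in Prdm16 and 0 rose. They were Zfp984, with a log2 fold change of -6.20 (edgeR adjusted p = 0.0211), and Sp110, with -3.98 (edgeR adjusted p = 0.0467). With all 5 libraries, Sp110 had a log2 fold change of -0.46 (standard error 1.65, adjusted p = 0.9996 by edgeR), and without WT replicate 2 alone it was 0.18. Lrrn1 had 0.06 with all 5 libraries and 2.33 without the 2 libraries, with an edgeR adjusted p of 0.645.

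In the authors' deposited table, 10 genes of the regions had an adjusted p and 3 (30%) were past its limits (0.5 for the log2 fold change, 0.1 for the adjusted p), where 7.55% of 6237 genes were. Of those genes, 1.97% were called higher and 5.58% lower, beside 1 and 2 of the 10. The authors' deposited table lists Sp110 with a log2 fold change of -4.51 and an adjusted p of 3.91e-13, and Sp140 with -1.77 and 0.0262. It lists Lrrn1 with 1.64 and 0.0753. Zfp984 is listed in the authors' deposited table with an adjusted p of 0.08 and a log2 fold change under the limit, so it is not a call there. That fold change is -0.06 with a standard error of 0.25 beside an unadjusted p of 0.00126 in the authors' deposited table, so fold change and p do not come from the same estimate, and the fold change is not on the scale of those above. Since the table follows the exchanged labels, its directions cannot be set beside those of the libraries as labelled.

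In a list of genes of the lamina and of H3K9 methylation, no gene located on the autosomes touched the regions. Emd, Suv39h1 and Phf8 of that list were not located on the autosomes. The regions held 5.48% of autosomal coding genes, so for a list of this size few would be looked for there. All 40 genes of the list, with lamins, lamina receptors, H3K9 methyltransferases, demethylases and HP1 proteins, were tested for RNA. Of these, 20 had a positive and 20 a negative log2 fold change, with a median of 0.01, against 0.0005 over all genes tested. None was called and none had an unadjusted p under 0.05 by edgeR, and none was called by DESeq2.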

How the data were processed

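FAPs of 2 genotypes were profiled by ChIP-seq for H3K9me2 and LaminB1 and by RNA-seq, made by SMART-seq2 per the labels' protocols. Per the submitters' processing notes, the tools were STAR 2.7, Bowtie 1.2.2, DESeq2 1.20 and featureCounts, with GRCm38, mm10 and dm6 as builds. The sources used here do not give the domain caller. Each deposited domain list holds a chromosome, start, end and the authors' score per domain, with 1 list per library. The deposited count table holds raw counts for 55341 genes. The deposited comparison table of the authors holds p-values, a log2 fold change with its standard error, and a mean normalized signal. The 8 input samples and the normalized table were not used.

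The members, gene lists and families were chosen with earlier results of these data known. Classes of 1 kb bins were computed in Python 3.11.15 with numpy 2.4.6, pandas 2.3.3 and scipy 1.17.1, and drawn with matplotlib 3.10.9. Genes came from the RefSeq table of GRCm38.p6 and were put in the class that held 0.5 or more of their body. Symbols or synonyms matched 76.7% of autosomal genes to the count table. Exon lengths and a genome sequence were not used here, so levels are CPM, which also follow transcript length and rank genes only for naming, and promoters from RefSeq stand for base composition. RNA was tested with edgeR 4.0.16 under R 4.3.3 (robust quasi-likelihood, two-sided, trimmed mean of M-values, default expression filter, Benjamini-Hochberg over all genes tested, threshold 0.05). The procedure was tested on simulated data. Depth of the domain libraries is unknown.

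Regions named are the 8 longest. Genes named are the 12 coding genes of highest mean CPM and others at 1 CPM or more, the 8 tested genes of smallest p, and those called in the authors' table. Predicted genes, Rik symbols and pseudogenes are counted only. Alternatives were other region rules, DESeq2 1.42.0, no filter, a replicate block and leaving out libraries.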

Additional observations from a re-analysis of the deposited data

How the results depend on the processing

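The regions' length lay between 104.7 and 137.3 Mb, gene density between 9.23 and 9.68 coding genes per Mb and the receptor share between 46.8 and 49.9% under every region rule tried. The free share of shared LaminB1 was 38.8% with H3K9me2 widened by 12 kb, 45.1% with LaminB1 domains in the upper 0.5 by the authors' score, and 39.3 to 45.9% without each H3K9me2 library. Median promoter GC was 39.0% with the upper 0.5 by score and 38.3 to 38.7% without each library. Of coding genes, 7.10% had a mean of at least 0.1 CPM, and 4.75% without receptor families had 1 CPM (chosen after seeing the data). Calls among the genes numbered 2 without both libraries at odds with the authors' table and 0 without each RNA library, with DESeq2, without a filter and with gene starts in place of bodies. Log2 fold changes changed sign for Pcdhb5 (-0.034 without both libraries at odds), and without single libraries for Sp110 (-3.41 to 0.42), Sp140 (-1.28 to 0.38) and Lrrn1 (-0.42 to 2.03). The cause was not tested. The labels do not say whether replicate numbers pair the samples. Deviations of same-numbered libraries from their group mean correlated at 0.21 for number 1 and -0.20 for number 2. With 2 Prdm16 libraries these deviations are exact opposites, so the correlations cannot decide whether the numbers pair samples. With the replicate block, 0 genes of the regions were called by edgeR. In that fit 3 of 36 (8.33%) had an unadjusted p under 0.05, against 5.93% of all genes tested. Leaving out bins with assembly gaps was not run. LaminB1 rests on 1 library per genotype, and a count of 0 in a library allows a level of up to 0.28 to 0.533 CPM.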
